A study of Mus musculus with 6 samples.

Results

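Phase II conjugation enzymes attach a polar group to drugs, toxins, hormones and products of lipid peroxidation. They comprise the glutathione S-transferases of the cytosol and of membranes, the UDP-glucuronosyltransferases and the sulfotransferases. In the data examined here, 63 of the 20571 gene symbols shared by the 6 deposited count tables belonged to these families. They were chosen by symbol alone, as every gene whose name begins with Gsta, Gstm, Gstp, Gstt, Gsto, Gstk, Gstz, Mgst, Ugt1, Ugt2 or Sult and that is listed in all 6 tables. The rule itself uses no measured value. The 63 genes comprised 21 cytosolic glutathione S-transferases, 3 microsomal ones, 18 UDP-glucuronosyltransferases and 21 sulfotransferases. A further 3 symbols, Gsta5, Gstp3 and Ugt1a8, were listed in the tables of 1 group alone and were left out.

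Glutathione S-transferases couple the thiol of glutathione to electrophiles, and several of them also act as peroxidases or isomerases. UDP-glucuronosyltransferases sit in the endoplasmic reticulum and transfer glucuronic acid from UDP-glucuronic acid, while cytosolic sulfotransferases transfer sulfate from PAPS. Adult hepatocytes express many members of all 3 families strongly, under transcription factors such as HNF4A and the xenobiotic receptors PXR, CAR and AHR. NRF2, released from KEAP1 under electrophile stress, is a well known activator of several glutathione S-transferase genes and of glutathione synthesis.

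The study cultured liver progenitor-like cells of C57BL/6 mice aged 6 to 8 weeks in Transition and Expansion Medium (TEM) and sequenced their RNA, with 2 libraries in each of 3 groups. Bec_LPCs grew out of intrahepatic bile duct pieces of wild-type (WT) mice plated in matrigel, and were sorted as Epcam+ cells by flow cytometry after 1 to 2 passages. Hep_LPCs came from hepatocytes of ROSA26tdTomato mice given AAV8-TBG-Cre, a virus whose Cre is driven by a hepatocyte promoter. NPC_LPCs came from the non-parenchymal cells of AlbCreERT/R26GFP mice, in which an albumin promoter drives the inducible Cre. All 6 libraries were made with a stranded poly(A) kit. The labels do not say whether the 2 libraries of a group came from separate animals or cultures, so the p-values below measure only the spread between these libraries, which may be technical. In bulk RNA, fewer cells of a type and less RNA per cell cannot be told apart.

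Total counts were 22985888 and 22634908 in Bec_LPCs, 18123118 and 17575998 in Hep_LPCs, and 17919947 and 20625957 in NPC_LPCs. At this depth 3 reads correspond to between 0.127 and 0.178 CPM (the reads of a gene relative to the scaled total of its library). The Bec_LPCs libraries were close to each other, with a chi-square of their counts over all genes that was 5.52 times its degrees of freedom, against 92.5 times in Hep_LPCs and 111 times in NPC_LPCs. The Bec_LPCs tables also list other gene symbols than those of the other 2 groups, so that group and table layout cannot be told apart in any comparison with Bec_LPCs. The Hep_LPCs replicate 2 library held 1 read of the Y-linked gene Ddx3y, against 1032 to 2370 in the other 5 libraries, and the labels do not give the sex of the mice. Of 10 hepatocyte markers, 3 reached 1 CPM in both libraries of each group, but not the same 3. They were Ttr, Apob and Hnf4a in Bec_LPCs and Hep_LPCs, and Apob, Fgb and Hnf4a in NPC_LPCs. Of 8 biliary markers, 8 reached 1 CPM in both libraries of Bec_LPCs, 5 in Hep_LPCs and 5 in NPC_LPCs. Epcam, the marker by which Bec_LPCs were sorted, had 59.0 and 65.7 CPM in Bec_LPCs, 0.351 and 1.84 CPM in Hep_LPCs, and 0.115 and 0.610 CPM in NPC_LPCs. Alb and Ttr stood between 0 and 2.40 CPM in all 6 libraries, Apob between 1510 and 4975 CPM, and Tat had no read. The 8 mesenchymal markers summed to 186 and 224 CPM in Bec_LPCs, 4.33 and 5.85 CPM in Hep_LPCs, and 4.04 and 17.1 CPM in NPC_LPCs, with Lrat, a marker of stellate cells, at 0 in all 6. Their part in the differences of Bec_LPCs given below was not tested. Lymphocyte markers had no read in any library.

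Promoter sequences are shown for 4 of the 6 members called in Bec_LPCs against Hep_LPCs (Gstm2, Mgst1, Mgst3 and Ugt2b34) and for Gsta3, which holds the NRF2 motif below. They are taken from RefSeq on GRCm38.p6 and cover the 250 bases before the transcription start, 5′ to 3′ on the strand of the gene. Capitals mark 2 motifs searched on both strands: TGACNNNGC, the core of the antioxidant response element bound by NRF2, and GCGTG, the core bound by the AHR. Gsta3 (chr1:21240335-21240584, + strand) and Mgst1 (chr6:138140277-138140526, + strand) hold the NRF2 motif. A second Mgst1 promoter, not shown (chr6:138141337-138141586, + strand), holds neither motif. Of the called members without a sequence here, Sult4a1 had no matched promoter, and that of Sult6b1 holds neither motif. Mgst3 (chr1:167393842-167394091, - strand) holds the AHR core, and Gstm2 (chr3:107986421-107986670, - strand) and Ugt2b34 (chr5:86906938-86907187, - strand) hold neither.
Gsta3: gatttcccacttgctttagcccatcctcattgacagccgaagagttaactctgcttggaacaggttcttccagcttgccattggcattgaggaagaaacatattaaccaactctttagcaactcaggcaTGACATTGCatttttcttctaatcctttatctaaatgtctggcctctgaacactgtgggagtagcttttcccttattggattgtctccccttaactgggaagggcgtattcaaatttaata
Mgst1: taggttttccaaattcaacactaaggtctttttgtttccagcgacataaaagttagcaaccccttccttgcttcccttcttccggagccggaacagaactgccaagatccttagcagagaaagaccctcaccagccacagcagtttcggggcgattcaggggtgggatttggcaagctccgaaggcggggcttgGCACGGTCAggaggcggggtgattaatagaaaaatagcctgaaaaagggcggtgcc
Mgst3: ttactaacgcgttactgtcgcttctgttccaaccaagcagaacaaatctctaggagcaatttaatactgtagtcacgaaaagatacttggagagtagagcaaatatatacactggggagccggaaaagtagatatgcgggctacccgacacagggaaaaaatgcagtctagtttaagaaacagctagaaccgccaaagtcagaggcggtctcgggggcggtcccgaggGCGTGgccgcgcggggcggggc
Gstm2: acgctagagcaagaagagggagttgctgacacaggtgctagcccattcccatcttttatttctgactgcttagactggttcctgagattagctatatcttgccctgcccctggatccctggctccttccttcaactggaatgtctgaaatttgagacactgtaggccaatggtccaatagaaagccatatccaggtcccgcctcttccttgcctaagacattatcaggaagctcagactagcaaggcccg
Ugt2b34: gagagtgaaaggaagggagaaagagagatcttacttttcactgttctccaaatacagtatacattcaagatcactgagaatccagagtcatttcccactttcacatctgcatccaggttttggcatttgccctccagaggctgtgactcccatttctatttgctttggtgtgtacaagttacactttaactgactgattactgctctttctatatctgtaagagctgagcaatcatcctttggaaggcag

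RefSeq promoters were matched for 56 of the 63 members. TGACNNNGC occurred in 4 of the 56 genes, where it began 121 bases before the start of Gsta3, 42 before Gstm5, 129 before Gstm7 and 56 before Mgst1, against 11.5% of all 27025 genes in the table. GCGTG occurred in 9 of the 56, against 30.9% of all genes. In Gstm5 it overlapped TGACNNNGC.

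Most of the phase II expression in all 3 groups came from glutathione S-transferases. Levels are given as CPM after TMM scaling, and, where genes or classes are compared with each other, as CPM per kilobase of exon (GENCODE M21). The cytosolic and microsomal glutathione S-transferases made up 94.7 and 95.2% of the summed level per kilobase of all members in Bec_LPCs, 90.4 and 94.8% in Hep_LPCs, and 95.7 and 96.8% in NPC_LPCs. UDP-glucuronosyltransferases made up 3.05 and 2.40% in Bec_LPCs, 8.86 and 4.58% in Hep_LPCs, and 2.87 and 1.26% in NPC_LPCs. Sulfotransferases made up 2.21 and 2.41% in Bec_LPCs, 0.784 and 0.604% in Hep_LPCs, and 1.47 and 1.98% in NPC_LPCs. Both Hep_LPCs libraries thus had a higher glucuronosyltransferase share and a lower sulfotransferase share than the other 4 libraries.

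Many members were not detected, and no adult liver was measured here for comparison. No read was counted in any library for 19 of the 63 members, which included 14 of the 21 sulfotransferases and 5 of the 18 UDP-glucuronosyltransferases. They were Sult2a1 to Sult2a8, which sulfate bile acids and steroids, the estrogen sulfotransferase Sult1e1, Sult1c1, Sult3a1, Sult3a2, Sult5a1, Sult6b2, Ugt1a10, Ugt2a1, Ugt2a2, Ugt2b37 and Ugt2b38. Ugt1a10, Ugt2a1 and Ugt2a2 share exons with neighbouring genes and Ugt2b38 is a near-identical copy of Ugt2b5, so a 0 for these 4 is uncertain at any depth. For the others a count of 0 allows up to 3 reads, so low levels of them were not detectable at this depth. All 24 glutathione S-transferases had reads. A further 3 members never exceeded 3 reads in a library. The count filter was passed by 35 members in the fit of all 6 libraries and by 32 in the fit of Hep_LPCs and NPC_LPCs alone.

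**Figure D1:**
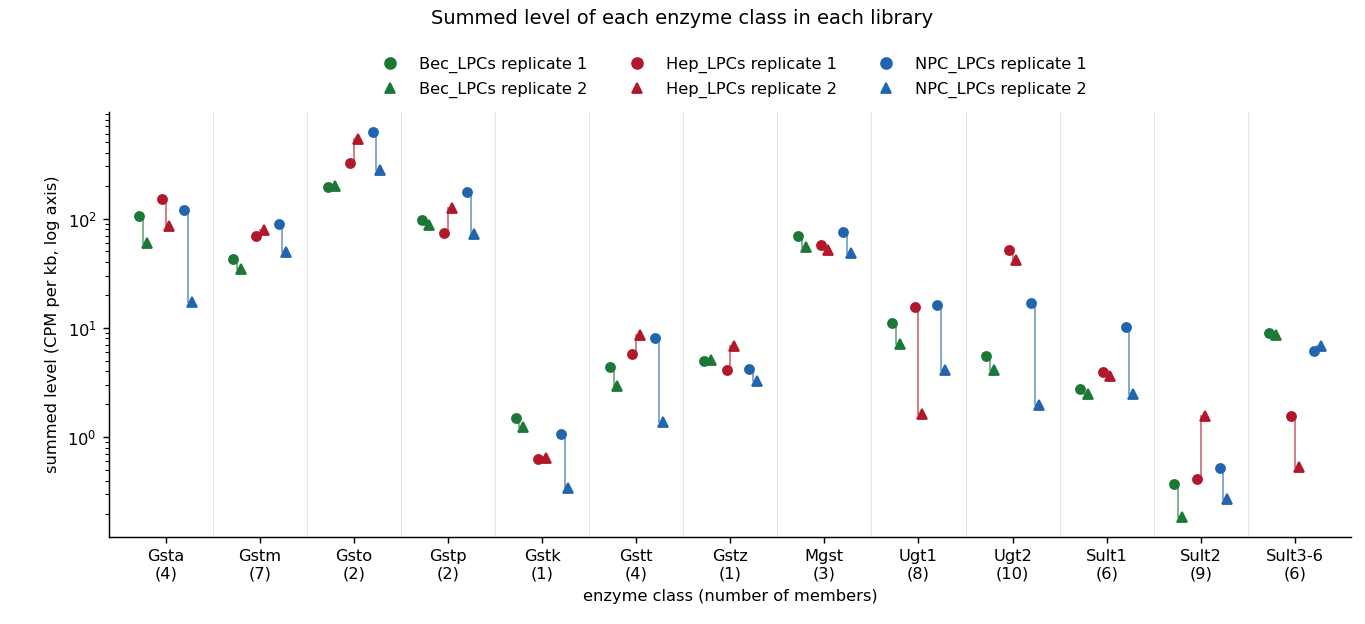
Summed level of each enzyme class (CPM per kilobase of exon, log axis) in each library, with the number of members under each class. Circles are replicate 1 and triangles replicate 2 of Bec_LPCs, Hep_LPCs and NPC_LPCs, and the line joins the 2 libraries of a group. The Gsto class is the highest in every library, Ugt2 is highest in the 2 Hep_LPCs libraries at 51.7 and 41.6 CPM per kilobase, and the Sult3-6 class is lowest there at 1.56 and 0.528.

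Gsto1, the omega class enzyme that reduces dehydroascorbate and small-molecule disulfides, was the highest member per kilobase in every group, at 197 CPM per kilobase in Bec_LPCs, 431 in Hep_LPCs and 450 in NPC_LPCs (means of 2). It lies on chromosome 19 at 47854970 to 47864790 (mm10, GENCODE M21, + strand). Its levels were 391 and 405 CPM in Bec_LPCs, 657 and 1085 CPM in Hep_LPCs, and 1262 and 561 CPM in NPC_LPCs. The Bec_LPCs libraries were the 2 lowest, and the ranges of Hep_LPCs and NPC_LPCs overlapped. The difference of Bec_LPCs did not pass the test against Hep_LPCs (log2 fold change -1.13 ± 0.43 SE, adjusted p = 0.0887 by edgeR) or against NPC_LPCs (-1.20 ± 0.43, adjusted p = 0.124).

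Gstp1, a pi class enzyme, had 149 and 134 CPM in Bec_LPCs, 113 and 192 CPM in Hep_LPCs, and 267 and 111 CPM in NPC_LPCs. All 3 groups overlapped. Per kilobase Gstp1 came next after Gsto1 in Bec_LPCs and NPC_LPCs, but not in Hep_LPCs, where Gsta4 came next at 108 CPM per kilobase against 98.5 for Gstp1.

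The alpha class members Gsta3 and Gsta4 differed from each other in where they were high. Gsta4, which conjugates the lipid peroxidation product 4-hydroxynonenal, had 90.7 and 51.2 CPM in Bec_LPCs, 174 and 99.9 CPM in Hep_LPCs, and 92.8 and 14.4 CPM in NPC_LPCs. Gsta3, which in mice detoxifies activated aflatoxin, had 137 and 73.7 CPM in Bec_LPCs, 24.4 and 12.8 CPM in Hep_LPCs, and 178 and 22.8 CPM in NPC_LPCs. Gsta4 was highest in the Hep_LPCs libraries, whereas Gsta3 was lower there than in either Bec_LPCs library, and NPC_LPCs replicate 2 was far under replicate 1 for both. Gsta3 did not pass the test in Bec_LPCs against Hep_LPCs (log2 fold change 2.50 ± 0.95, adjusted p = 0.0887) or in Hep_LPCs against NPC_LPCs (-2.43 ± 0.98, adjusted p = 0.233). Gsta4 did not pass it in any comparison (adjusted p = 0.412 in Hep_LPCs against NPC_LPCs, by edgeR). Without NPC_LPCs replicate 1, Gsta4 passed in Hep_LPCs against NPC_LPCs (3.22, adjusted p = 0.0246), and without NPC_LPCs replicate 2, Gsta3 did (-3.26, adjusted p = 0.0332).

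Among the mu class genes, Gstm2 set Hep_LPCs apart. Gstm2, on chromosome 3 at 107981702 to 107986453 (- strand), had 5.19 and 4.12 CPM in Bec_LPCs, 27.5 and 25.7 CPM in Hep_LPCs, and 10.3 and 5.34 CPM in NPC_LPCs. Both Hep_LPCs libraries were above all others. It was lower in Bec_LPCs than in Hep_LPCs (log2 fold change -2.51 ± 0.38, adjusted p = 0.00829), while its difference between Hep_LPCs and NPC_LPCs did not pass the test (1.75 ± 0.42, adjusted p = 0.102). Its neighbour Gstm1 had 35.6 and 26.7 CPM in Bec_LPCs, 64.5 and 70.4 CPM in Hep_LPCs, and 91.0 and 42.9 CPM in NPC_LPCs. The Bec_LPCs libraries were the 2 lowest, without passing the test against Hep_LPCs (-1.11 ± 0.37, adjusted p = 0.0639) or NPC_LPCs (-1.10 ± 0.37, adjusted p = 0.108). Gstm5 had 11.7 and 11.1 CPM in Bec_LPCs, 5.15 and 10.6 CPM in Hep_LPCs, and 17.6 and 14.6 CPM in NPC_LPCs, and was not called in any comparison. Gstm3 stayed under the filter of all 6 libraries, with 2 reads in Bec_LPCs, 21 in Hep_LPCs and 0 in NPC_LPCs. Its level in Bec_LPCs was 14.5-fold lower than in Hep_LPCs (95% interval 3.56 to 128, counting error only). In Hep_LPCs it was at least 3.80-fold higher than the floor of 3 reads per library in NPC_LPCs. That bound leaves out the counting error of the Hep_LPCs reads.

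In the zeta, theta and kappa classes no member named here was called. Gstz1, which isomerises maleylacetoacetate in tyrosine breakdown, had 25.2 and 25.9 CPM in Bec_LPCs, 20.8 and 34.6 CPM in Hep_LPCs, and 21.5 and 16.6 CPM in NPC_LPCs. Gstt3, a theta class gene that shares exon sequence with the annotated gene Gm20441 so that its reads could be split, had 13.1 and 9.30 CPM in Bec_LPCs, 11.9 and 15.8 CPM in Hep_LPCs, and 23.0 and 3.76 CPM in NPC_LPCs. Gstk1, the mitochondrial and peroxisomal kappa class enzyme, had 2.19 and 1.80 CPM in Bec_LPCs, 0.936 and 0.949 CPM in Hep_LPCs, and 1.56 and 0.508 CPM in NPC_LPCs. The ranges of Hep_LPCs and NPC_LPCs overlapped for each of these 3 genes.

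The 3 microsomal glutathione S-transferases, membrane proteins unrelated in sequence to the cytosolic ones, went in different directions. Mgst1, which protects membranes from lipid peroxides, had 96.9 and 71.7 CPM in Bec_LPCs, 36.1 and 25.4 CPM in Hep_LPCs, and 122 and 52.2 CPM in NPC_LPCs. Mgst3, a peroxidase and leukotriene C4 synthase, had 20.5 and 19.3 CPM in Bec_LPCs, 41.3 and 39.3 CPM in Hep_LPCs, and 15.3 and 22.9 CPM in NPC_LPCs. Mgst1 was thus lowest and Mgst3 highest in Hep_LPCs, with no overlap with either other group. Such separation was common, at 56.6% of all genes tested in Hep_LPCs against NPC_LPCs and 77.6% in Bec_LPCs against Hep_LPCs. In Bec_LPCs against Hep_LPCs, Mgst1 was higher (log2 fold change 1.46 ± 0.44, adjusted p = 0.0488) and Mgst3 was lower (-1.02 ± 0.25, adjusted p = 0.0271). In Hep_LPCs against NPC_LPCs neither passed the test (Mgst1 -1.52 ± 0.45, adjusted p = 0.141; Mgst3 1.05 ± 0.32, adjusted p = 0.147). Mgst2 had 8.74 and 6.90 CPM in Bec_LPCs, 7.67 and 12.6 CPM in Hep_LPCs, and 4.85 and 6.71 CPM in NPC_LPCs, and was not called.

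Ugt2b34 was the member with the largest called difference in fold among those with reads in all libraries. This glucuronosyltransferase gene, on chromosome 5 at 86889767 to 86906937 (- strand), had 13.6 and 9.13 CPM in Bec_LPCs, 211 and 172 CPM in Hep_LPCs, and 67.5 and 7.37 CPM in NPC_LPCs. Both Hep_LPCs libraries stood above the rest, and NPC_LPCs replicate 1 stood between them and the other 3. It was lower in Bec_LPCs than in Hep_LPCs (log2 fold change -4.07 ± 0.99, adjusted p = 0.0279). It did not pass the test in Hep_LPCs against NPC_LPCs (2.35 ± 0.97, adjusted p = 0.246) or in Bec_LPCs against NPC_LPCs (-1.71 ± 0.91, adjusted p = 0.256). Both values moved with single NPC_LPCs libraries. Without replicate 1 the first value was 4.68 (adjusted p = 0.00506) and the second turned to 0.58 (adjusted p = 0.305), and without replicate 2 the second was -2.57 (adjusted p = 0.0233).

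Ugt2b36 was called in Bec_LPCs against NPC_LPCs at low levels. It had 2.28 and 2.06 CPM in Bec_LPCs, 1.52 and 0.771 CPM in Hep_LPCs, and 0.346 and 0.203 CPM in NPC_LPCs. Its level in Bec_LPCs was higher than in NPC_LPCs (log2 fold change 2.96 ± 0.67, adjusted p = 0.0461), and the 3 groups did not overlap. The call was not made without any 1 of the 4 libraries compared (2.62 to 3.33, adjusted p = 0.0885 to 0.362).

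The Ugt1a genes are alternative first exons of 1 locus on chromosome 1 that share their other exons, so the split of reads among them is uncertain in these counts. Ugt1a7c had 43.4 and 28.2 CPM in Bec_LPCs, 54.8 and 4.39 CPM in Hep_LPCs, and 34.0 and 10.7 CPM in NPC_LPCs. Ugt1a6a, whose product conjugates planar phenols, had 1.94 and 1.07 CPM in Bec_LPCs, 7.20 and 1.07 CPM in Hep_LPCs, and 22.9 and 4.37 CPM in NPC_LPCs. In Hep_LPCs both were several times higher in replicate 1, by 12.5-fold for Ugt1a7c and 6.74-fold for Ugt1a6a. Ugt1a1, the bilirubin-conjugating form, had 0 and 1 read in Bec_LPCs against 50 and 5 in NPC_LPCs, a level 69.9-fold lower in Bec_LPCs (95% interval 12.0 to 2811, counting error only). That fold rests on NPC_LPCs replicate 1: without it the level was 12.0-fold lower (1.34 to 565), against 136-fold without NPC_LPCs replicate 2 and 34.7-fold without Bec_LPCs replicate 1. It was below the filter of the fit of 6.

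Of the sulfotransferases, Sult4a1 was lower in both Hep_LPCs libraries than in the other 4. Sult4a1, best known from neurons and without an established substrate, had 21.1 and 20.4 CPM in Bec_LPCs, 3.92 and 1.19 CPM in Hep_LPCs, and 15.5 and 17.3 CPM in NPC_LPCs. It lies on chromosome 15 at 84076097 to 84105754 (- strand). It was higher in Bec_LPCs than in Hep_LPCs (log2 fold change 3.02 ± 0.55, adjusted p = 0.0129; 4.12 without Hep_LPCs replicate 1 and 2.40 without Hep_LPCs replicate 2), and Hep_LPCs against NPC_LPCs gave -2.70 ± 0.64 (adjusted p = 0.103), which did not pass. Sult6b1 had 29 and 26 reads in Bec_LPCs, 0 and 2 reads in Hep_LPCs, and 0 and 0 reads in NPC_LPCs. Its level was 19.8-fold higher in Bec_LPCs than in Hep_LPCs (95% interval 5.24 to 168, counting error only; adjusted p = 0.0488), 9.86-fold higher without Hep_LPCs replicate 1, and at least 7.18-fold higher in Bec_LPCs than the floor of 3 reads per library in NPC_LPCs (adjusted p = 0.051).

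Sult1c2, a phenol sulfotransferase, had 3.59 and 3.0 CPM in Bec_LPCs, 5.27 and 3.68 CPM in Hep_LPCs, and 18.1 and 3.81 CPM in NPC_LPCs. Sult2b1, which sulfates cholesterol and pregnenolone, had 1.48 and 0.729 CPM in Bec_LPCs, 1.64 and 6.11 CPM in Hep_LPCs, and 2.08 and 1.07 CPM in NPC_LPCs. For each, 1 library stood above the other 5, NPC_LPCs replicate 1 for Sult1c2 and Hep_LPCs replicate 2 for Sult2b1. Neither was called. The remaining 14 members past the filter of 6 ranged between 0 and 8.78 CPM.

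**Figure D2:**
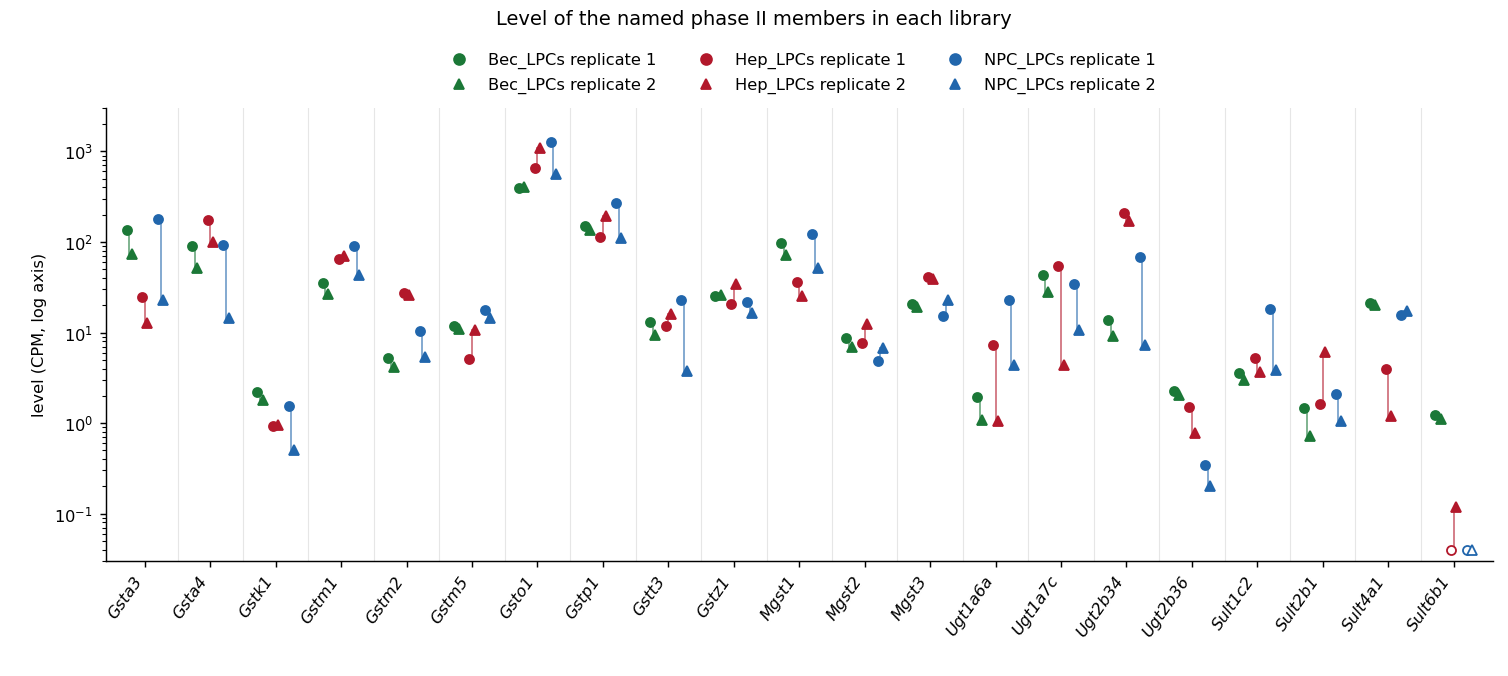
Level (CPM, log axis) of the 21 named members in each library, in order of class. Circles are replicate 1 and triangles replicate 2 of Bec_LPCs, Hep_LPCs and NPC_LPCs, lines join the 2 libraries of a group, and open symbols at the lower edge mark 0 reads. Gstm2, Mgst3 and Ugt2b34 stand above the other groups in Hep_LPCs, Mgst1 and Sult4a1 below them, and the NPC_LPCs libraries lie far apart for Gsta3, Gsta4, Gstt3 and Ugt2b34.

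Over all 3 comparisons, 7 different members were called by edgeR's quasi-likelihood test at an adjusted p under 0.05. In Hep_LPCs against NPC_LPCs, 0 of 32 members tested were called, against 0.781% of the 12159 genes tested (0.354% higher and 0.428% lower). In this comparison 5 members had an unadjusted p under 0.05 (Gstm2, Mgst1, Mgst3, Sult4a1 and Ugt2b35), which is 15.6% of those tested, beside 22.2% of all genes. DESeq2 called 5 members there, against 12.0% of genes, and limma-voom called 0, against 0.0411%. In Bec_LPCs against NPC_LPCs, 1 of 35 members was called, Ugt2b36, against 11.3% of the 12867 genes tested (4.89% higher and 6.44% lower). DESeq2 called 7 members, against 21.2% of genes, and limma-voom 2, against 14.1%. In Bec_LPCs against Hep_LPCs, 6 of 35 members were called, against 33.4% of genes. Sult4a1, Mgst1 and Sult6b1 were higher in Bec_LPCs, a direction taken by 16.1% of genes, and Gstm2, Mgst3 and Ugt2b34 were lower, a direction taken by 17.2%. DESeq2 called 8 members, against 39.1% of genes, and limma-voom 5, against 36.5%. The share of members called by edgeR, 2.86% against NPC_LPCs and 17.1% against Hep_LPCs, was below that of all genes in both comparisons of Bec_LPCs. The libraries of the compared groups did not overlap for 40.6% of members tested in Hep_LPCs against NPC_LPCs, beside 56.6% of all genes tested. In Bec_LPCs against NPC_LPCs the shares were 51.4% and 70.0%, and in Bec_LPCs against Hep_LPCs 65.7% and 77.6%. Lack of overlap was thus less frequent among members than among all genes. The comparisons share libraries with one another.

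The fold changes of members were not small, but their errors were large. The median absolute log2 fold change of the members tested was 1.13 in Hep_LPCs against NPC_LPCs, 0.74 in Bec_LPCs against NPC_LPCs and 1.02 in Bec_LPCs against Hep_LPCs, beside 0.48, 0.49 and 0.72 over all genes tested. The median standard error of the members was 0.85, 0.79 and 0.80 in the same order, beside 0.35, 0.29 and 0.29 over all genes. The median log2 fold change of the members was 0.20, -0.05 and -0.37, beside -0.00445, 0.01 and 0.03 over all genes. These values describe members that passed the filter, which a gene can pass through 1 high group.

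**Figure D3:**
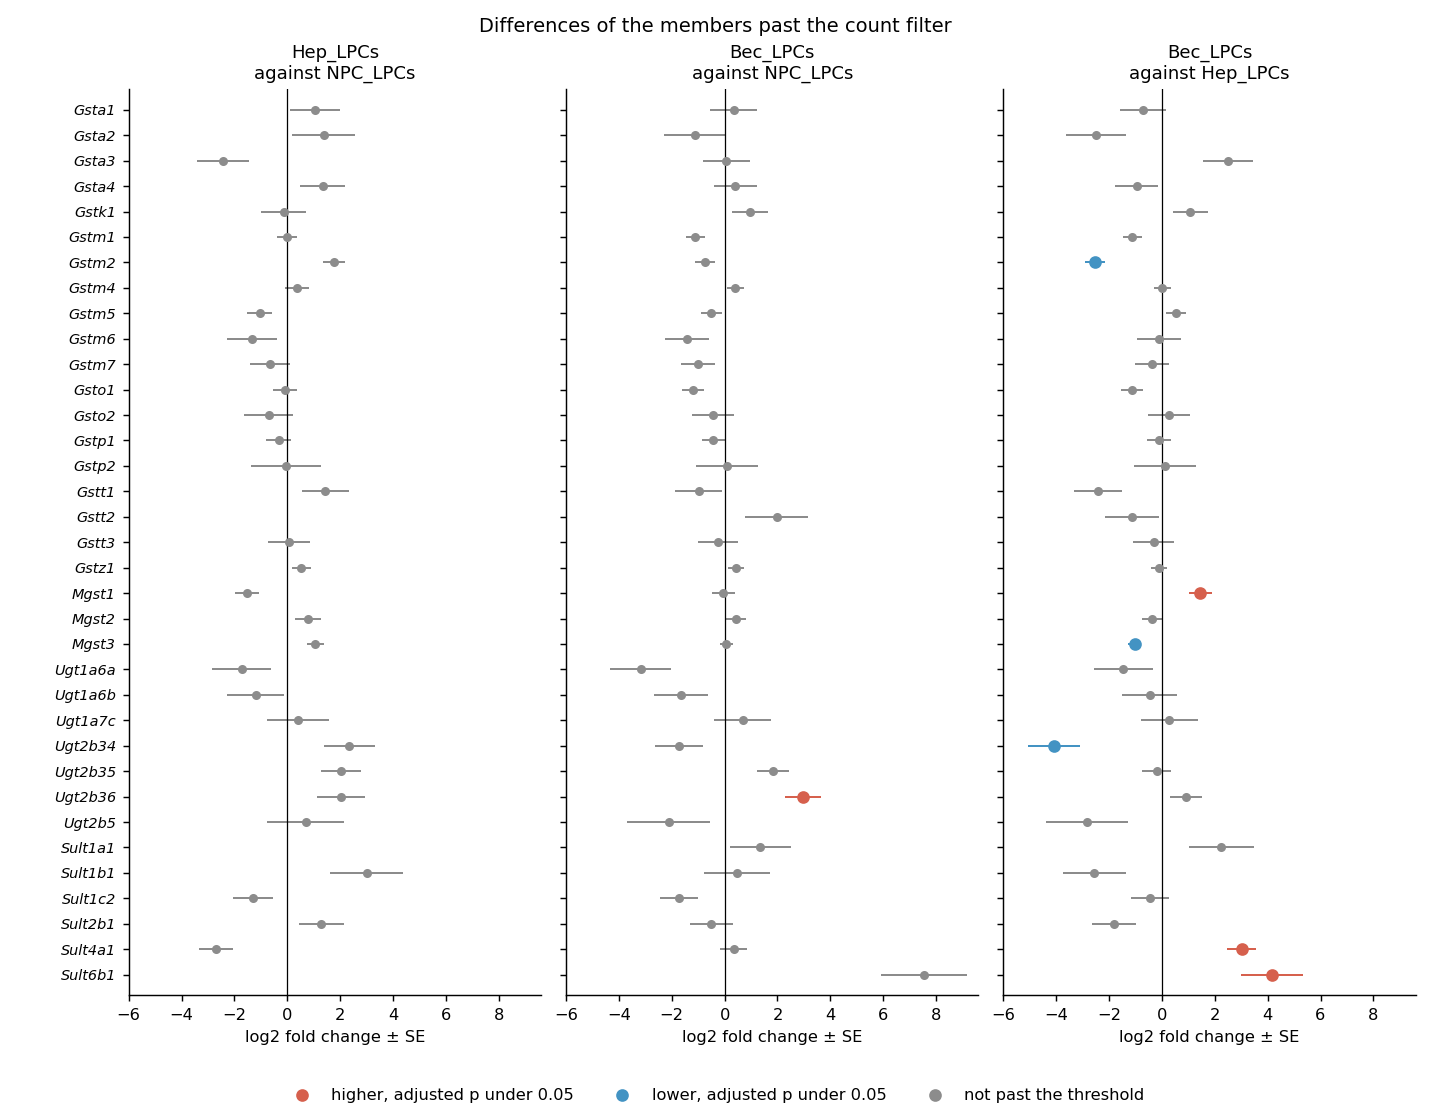
Log2 fold change with its standard error for each member past the count filter in the 3 comparisons, the first from the fit of 4 libraries and the others from the fit of 6. Coloured points passed an adjusted p of 0.05 by edgeR, none in the left panel, 1 in the middle and 6 on the right. The value of Sult6b1 in the middle panel is set against 0 reads and depends on the prior count. Gstt2, Sult1a1 and Sult6b1 were not tested in the left panel.

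The calls rested on few libraries. Without either Bec_LPCs library, 0 members were called in Bec_LPCs against Hep_LPCs, and the share of all genes called there was 3.69% in both cases. Without Hep_LPCs replicate 1, 2 members remained (Gstm2 and Sult4a1, beside 25.9% of all genes), and without Hep_LPCs replicate 2, the library with 1 Ddx3y read, 3 were called (Gstm2, Gstm5 and Sult4a1, beside 33.0% of all genes). Without either NPC_LPCs library, 12 members were called in Bec_LPCs against Hep_LPCs, beside 36.6% of all genes: the 6 named above and Gsta3, Gstm1, Gstm3, Gsto1, Gstt1 and Sult1b1. Gstm2 and Sult4a1 kept their call in 14 of 16 alternative analyses, Mgst3 and Ugt2b34 in 12 of 16, Mgst1 in 9 of 16, Sult6b1 in 7 of 15 and Ugt2b36 in 8 of 15. All 7 kept their direction in each of these. Without Bec_LPCs replicate 1 and replicate 2, the adjusted p was 0.0624 and 0.0762 for Gstm2, 0.0681 and 0.0657 for Sult4a1, 0.177 and 0.193 for Mgst3, 0.177 and 0.202 for Ugt2b34, 0.193 and 0.119 for Mgst1, and 0.254 and 0.235 for Sult6b1. Without Hep_LPCs replicate 1 and replicate 2 it was 0.0738 and 0.0554 for Mgst3, 0.0849 and 0.0666 for Ugt2b34, 0.105 and 0.175 for Mgst1, and 0.109 and 0.0508 for Sult6b1.

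Within NPC_LPCs, most phase II members past the filter were higher in replicate 1. Of the 35 members past the filter of 6, 27 (77.1%) were over 1.5-fold higher in replicate 1 than in replicate 2 and 1 (2.86%) was over 1.5-fold lower, beside 16.6% and 15.9% of all 12867 genes. The median log2 ratio of replicate 1 over replicate 2 was 1.41 for the members and 0.00331 for all genes. Ratios reached 9.16-fold for Ugt2b34, 7.80-fold for Gsta3, 6.43-fold for Gsta4, 6.12-fold for Gstt3 and 5.23-fold for Ugt1a6a. Members near 1 were Sult4a1 at 0.899, Gstm5 at 1.20 and Gstz1 at 1.30, and Mgst3 was lower in replicate 1 at 0.669, within 1.5-fold. The member over 1.5-fold lower was Sult1b1, with 0 and 14 reads. Some of the 27 had few reads, and the 95% counting intervals of Gstt2 (0.326 to 25.1), Sult1a1 (0.819 to 12.4) and Ugt2b36 (0.404 to 8.21) included 1. Gsta1 and Gsta2 are near-identical copies. Summed hepatocyte, macrophage, mesothelial and biliary markers were also higher in replicate 1, whereas summed mesenchymal and endothelial markers were lower. The 10 hepatocyte markers, mostly Apob, summed to 2824 and 1563 CPM, with Hnf4a lower in replicate 1 (28.8 and 51.2 CPM). The 7 macrophage markers summed to 248 CPM in NPC_LPCs replicate 1 and 74.7 CPM in replicate 2, against 55.2 to 120 CPM in the other groups, with Clec4f at 0 and Adgre1 at 0 and 0.0508 CPM. Most of the macrophage sum came from Cd14 (161 and 52.7 CPM) and Cd68 (83.9 and 20.9 CPM). The 4 mesothelial markers, mostly Msln, summed to 609 and 238 CPM, and the 8 biliary markers, mostly Spp1, to 10004 and 4911 CPM. The biliary marker Sox9 was also higher in replicate 1 (269 and 83.7 CPM). Krt7, Krt19 (117 and 282 CPM) and Epcam (0.115 and 0.610 CPM) were lower there. The mesenchymal markers summed to 4.04 and 17.1 CPM, and the endothelial ones to 2.43 and 3.71 CPM. Their part in the replicate difference of the members was not tested. Members took 0.224% of the reads of shared genes in NPC_LPCs replicate 1 and 0.0896% in replicate 2.

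In Bec_LPCs the ratios were smaller but also leaned to 1 replicate, with 9 of 35 members (25.7%) over 1.5-fold higher in replicate 1 and 0 over 1.5-fold lower, beside 3.40% and 3.38% of all genes. The 9 were Gsta1, Gsta3, Gsta4, Gstp2, Gstt1, Sult2b1, Ugt1a6a, Ugt1a6b and Ugt1a7c. The 95% counting intervals of the ratio included 1 for Gstp2 (0.615 to 4.45) and Ugt1a6b (0.984 to 5.12). Ugt1a6a, Ugt1a6b and Ugt1a7c share exons, so their ratios are not separate counts. All 9 were also among the 27 of NPC_LPCs, which are 77.1% of the 35 members, so most of any 9 members would be. In Hep_LPCs 11 members (31.4%) were over 1.5-fold higher in replicate 1 and 13 (37.1%) over 1.5-fold lower, beside 16.9% and 19.8% of all genes. Replicates of a group have no order, and replicate 1 of one group is not tied to replicate 1 of another by the labels. The Ugt1 class was the furthest apart in Hep_LPCs, with a summed level of 15.6 CPM per kilobase in replicate 1 and 1.63 in replicate 2.

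**Figure D4:**
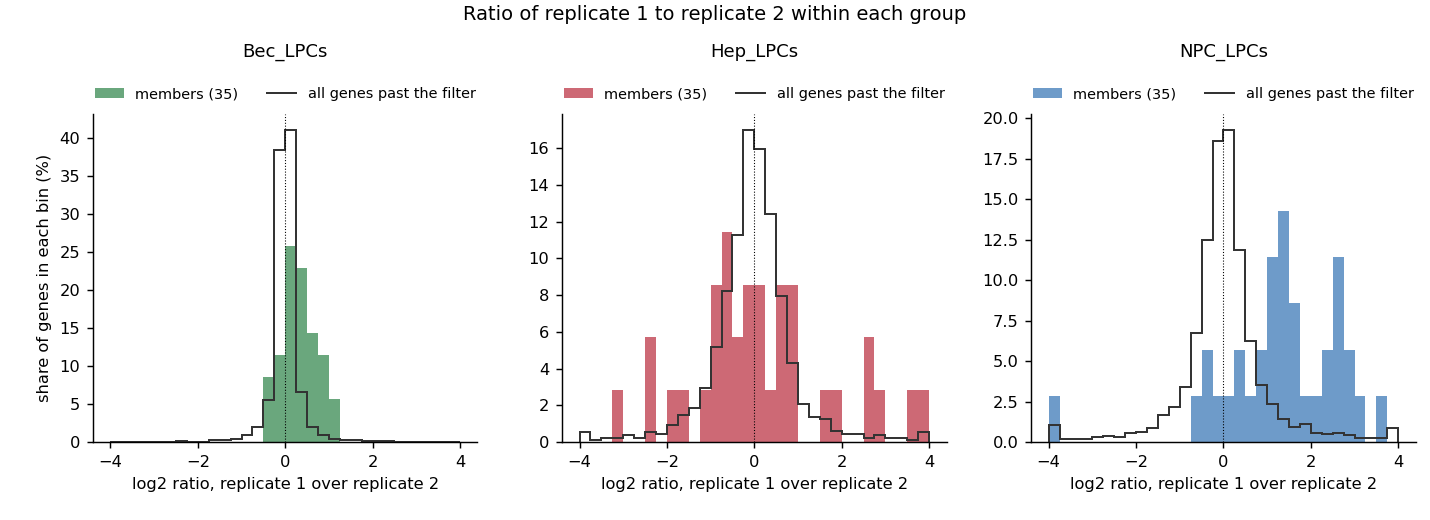
Share of genes (%) by log2 ratio of replicate 1 over replicate 2 within Bec_LPCs, Hep_LPCs and NPC_LPCs, in bins of 0.25, with values beyond 4 in the outermost bins. Filled bars are the 35 members and the black outline is all 12867 genes past the filter. The outline is centred near 0 in each group, while the NPC_LPCs members centre on 1.41 and the Hep_LPCs members spread to both sides.

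Genes that supply or dispose of glutathione were examined next. Of 14 genes listed, 12 were tested, and 0 were called in Hep_LPCs against NPC_LPCs, 1 in Bec_LPCs against NPC_LPCs and 4 in Bec_LPCs against Hep_LPCs. Over all genes the shares called in these comparisons were 0.781%, 11.3% and 33.4%. Ggct, the gamma-glutamyl cyclotransferase of glutathione turnover, had 16.6 and 17.2 CPM in Bec_LPCs, 6.38 and 4.81 CPM in Hep_LPCs, and 7.62 and 5.03 CPM in NPC_LPCs. It was higher in Bec_LPCs than in Hep_LPCs (log2 fold change 1.59 ± 0.33, adjusted p = 0.0184) and than in NPC_LPCs (1.42 ± 0.33, adjusted p = 0.0487). In Bec_LPCs against Hep_LPCs the conjugate exporter Abcc1 was also higher (0.77 ± 0.20, adjusted p = 0.0352), and the glutathione-degrading Chac1 (-1.90 ± 0.50, adjusted p = 0.0345) and Oplah (-1.42 ± 0.41, adjusted p = 0.0451) were lower. Gclc, the catalytic subunit of the rate-limiting enzyme of glutathione synthesis, had 948 and 665 CPM in Bec_LPCs, 1615 and 1095 CPM in Hep_LPCs, and 2643 and 936 CPM in NPC_LPCs, and was not called. Gclc, the cystine importer Slc7a11 (170 and 32.9 CPM) and the conjugate exporter Abcc2 (26.0 and 1.27 CPM) were higher in NPC_LPCs replicate 1 than in replicate 2, and are named here after their values were seen. Of the 12 genes of the list with reads in NPC_LPCs, 9 were over 1.5-fold higher in replicate 1 and 1, Ggt1, was over 1.5-fold lower (0.231 and 1.73 CPM). Over all genes past the filter these shares were 16.6% and 15.9%. In the lists examined below a smaller share was over 1.5-fold higher in replicate 1. There 2 of 8 genes of UDP-glucuronic acid supply and 4 of 9 of PAPS and sulfate supply were higher. So were 3 of 12 regulators and 5 of 14 other conjugating enzymes and related genes. In the same order 0, 0, 2 and 4 were lower. Among the lower were Nat1, Hnmt and Gnmt (0 and 2 reads each) and Nr1i3 (0 and 1 reads). Alox5ap (2 and 0 reads) was among the higher. Such genes lie below the count filter, which the shares over all genes apply.

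Genes that supply the glucuronic acid donor included Ugdh, which oxidises UDP-glucose to UDP-glucuronic acid. Ugdh had 335 and 300 CPM in Bec_LPCs, 1094 and 1403 CPM in Hep_LPCs, and 474 and 262 CPM in NPC_LPCs, so that the Hep_LPCs libraries stood above the other 4. It was lower in Bec_LPCs than in Hep_LPCs (log2 fold change -1.97 ± 0.32, adjusted p = 0.00979) and did not pass the test in Hep_LPCs against NPC_LPCs (1.75 ± 0.36, adjusted p = 0.0824). The lysosomal glucuronidase Gusb was higher in Bec_LPCs than in Hep_LPCs (0.85 ± 0.18, adjusted p = 0.02), and Pgm2 was lower in Bec_LPCs than in NPC_LPCs (-1.54 ± 0.23, adjusted p = 0.0194). Of the 8 genes listed, all tested, these 3 were the ones called, with 0 called in Hep_LPCs against NPC_LPCs, and 2 of 8 in Bec_LPCs against Hep_LPCs stood beside 33.4% of all genes.

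Of the genes of sulfate and PAPS supply, 0 of 9 were called in Hep_LPCs against NPC_LPCs, 3 of 10 in Bec_LPCs against NPC_LPCs (beside 11.3% of all genes) and 5 of 10 in Bec_LPCs against Hep_LPCs (beside 33.4%). Their median log2 fold changes were 0.03, 0.33 and 0.18 in the same order. Papss2, a PAPS synthase, had 6.37 and 4.20 CPM in Bec_LPCs, 74.3 and 93.7 CPM in Hep_LPCs, and 19.7 and 6.35 CPM in NPC_LPCs. It was lower in Bec_LPCs than in Hep_LPCs (log2 fold change -3.99 ± 0.59, adjusted p = 0.0078), and Hep_LPCs against NPC_LPCs gave 2.68 ± 0.55 (adjusted p = 0.0815). Papss2 and the sulfotransferase Sult4a1 were therefore at opposite ends in Hep_LPCs. The sulfate transporter Slc26a2 was higher in Bec_LPCs than in NPC_LPCs, at 277 and 220 CPM against 86.3 and 32.5 CPM (2.06 ± 0.45, adjusted p = 0.0434). Slc26a1, another sulfate transporter, had 25 and 28 reads in Bec_LPCs and none in Hep_LPCs or NPC_LPCs (adjusted p = 0.0266 against Hep_LPCs and 0.0497 against NPC_LPCs). The PAPS transporter Slc35b3 was higher in Bec_LPCs than in Hep_LPCs (1.24 ± 0.29, adjusted p = 0.0247) and NPC_LPCs (1.44 ± 0.29, adjusted p = 0.0362). The phosphatase gene Bpnt1 was lower in Bec_LPCs than in Hep_LPCs (-0.55 ± 0.16, adjusted p = 0.0435) and Bpnt2 was higher (1.58 ± 0.21, adjusted p = 0.00601). Bpnt2 is listed under its older symbol in some of the tables.

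Of 14 regulators listed, 11 were tested, and 1 was called in Hep_LPCs against NPC_LPCs, 1 in Bec_LPCs against NPC_LPCs and 4 in Bec_LPCs against Hep_LPCs, beside 0.781%, 11.3% and 33.4% of all genes. The gene called in all 3 was Hnf4a, a hepatocyte factor. Hnf4a had 126 and 104 CPM in Bec_LPCs, 248 and 263 CPM in Hep_LPCs, and 28.8 and 51.2 CPM in NPC_LPCs. It was higher in Hep_LPCs than in NPC_LPCs (log2 fold change 2.65 ± 0.35, adjusted p = 0.0481), higher in Bec_LPCs than in NPC_LPCs (1.52 ± 0.30, adjusted p = 0.0334) and lower in Bec_LPCs than in Hep_LPCs (-1.15 ± 0.29, adjusted p = 0.0308).

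Between Bec_LPCs and Hep_LPCs, Keap1 (-1.0 ± 0.18, adjusted p = 0.0121) and the bile acid receptor gene Nr1h4 (-1.73 ± 0.24, adjusted p = 0.0064) were lower in Bec_LPCs, and Bach1, a repressor at NRF2 sites, was higher (1.00 ± 0.30, adjusted p = 0.0491). Nfe2l2, the gene of NRF2, had 664 and 594 CPM in Bec_LPCs, 756 and 457 CPM in Hep_LPCs, and 772 and 721 CPM in NPC_LPCs, and was not called. Ahr was not called either and was higher in NPC_LPCs replicate 1, at 412 CPM, than in replicate 2, at 140 CPM. The xenobiotic receptor genes Nr1i2 (PXR) and Nr1i3 (CAR) never exceeded 0.534 CPM.

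Of 19 other conjugating enzymes and related genes outside the symbol rule, 9 or 10 were tested. Of these, 0 were called in Hep_LPCs against NPC_LPCs and 0 in Bec_LPCs against NPC_LPCs. In Bec_LPCs against Hep_LPCs 2 were called, beside 33.4% of all genes. The prostaglandin D synthase Hpgds, a sigma class glutathione S-transferase, and the prostaglandin E synthase Ptges, a relative of the microsomal ones, were lower in Bec_LPCs than in Hep_LPCs (log2 fold change -3.07 ± 0.63, adjusted p = 0.0175, and -4.13 ± 0.41, adjusted p = 0.00303). Ptges had 1.69 and 1.16 CPM in Bec_LPCs, 30.3 and 19.8 CPM in Hep_LPCs, and 3.70 and 2.74 CPM in NPC_LPCs. The median log2 fold changes of the 5 lists lay between -0.57 and 0.73, beside -0.00445 to 0.03 over all genes.

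**Figure D5:**
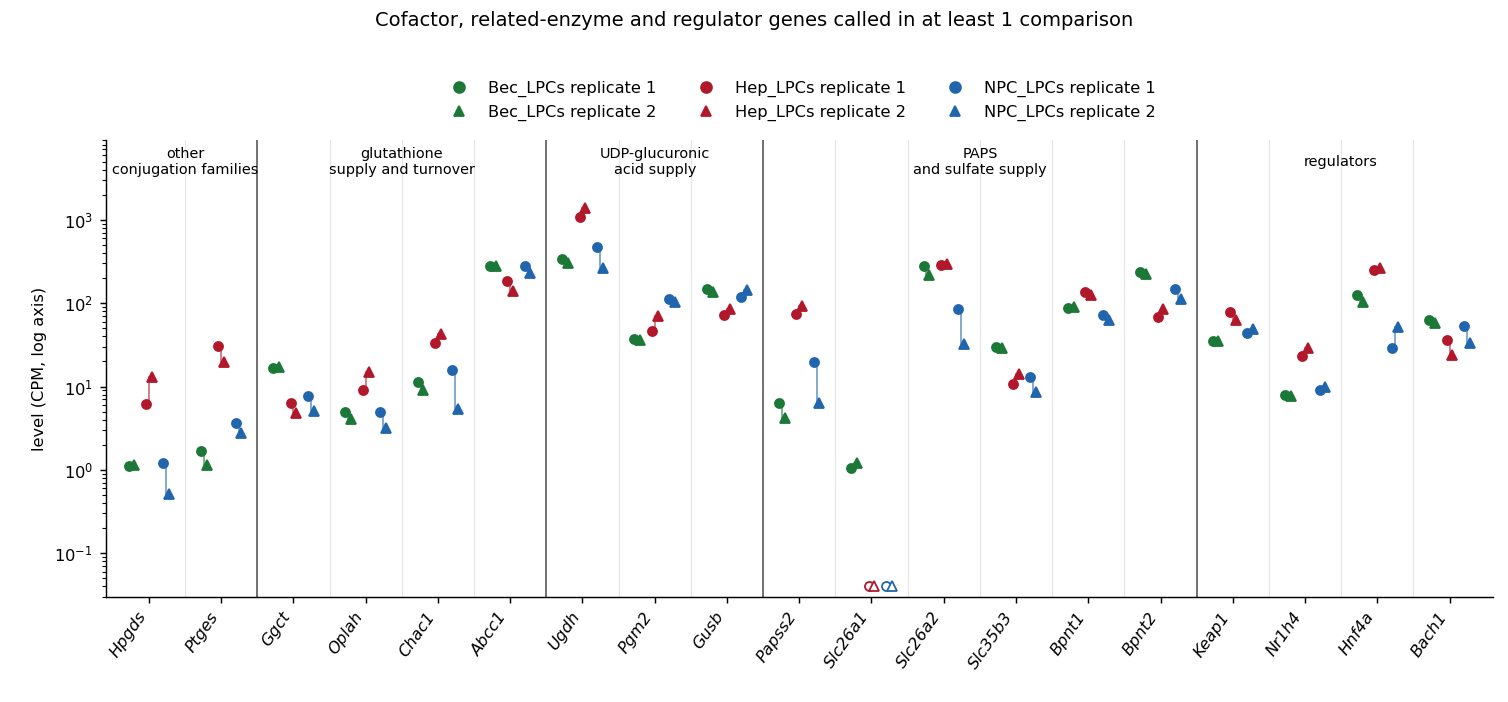
Level (CPM, log axis) in each library of the genes of the 5 further lists that were called in at least 1 comparison. Circles are replicate 1 and triangles replicate 2 of Bec_LPCs, Hep_LPCs and NPC_LPCs, lines join the 2 libraries of a group, and open symbols mark 0 reads. Hpgds, Ptges, Ugdh and Papss2 stand highest in the Hep_LPCs libraries, and Ggct, Slc35b3 and Slc26a1 in the Bec_LPCs libraries.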

How the data were processed

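Read counts per gene symbol were deposited by the authors for each of the 6 libraries, with FPKM values beside the counts in the 4 NPC_LPCs and Hep_LPCs tables, per the file headers. The submitters' processing notes list the build mm10 and the tools HISAT2, HTSeq, Cufflinks, DESeq and Trimmomatic, with no versions. Neither the annotation nor the strand setting is stated in the labels. The kit marks strand.

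Rows without a symbol (14 in each Bec_LPCs table, 0.000191 and 0.000181% of its counts) were dropped. Rows with the same symbol were summed, and 16 older symbols in the Bec_LPCs tables and 837 in the others were updated. Counts were scaled by TMM and tested with edgeR 4.0.16 in R 4.3.3 (glmQLFit, robust, and glmQLFTest, two-sided, Benjamini-Hochberg over all genes past filterByExpr). Hep_LPCs against NPC_LPCs used those 4 libraries and both Bec_LPCs comparisons used all 6, with 1 coefficient per group. The test was also run on simulated counts, whose outcome is not used here. Alternatives were DESeq2 1.42.0, limma-voom 3.58.1, other scalings and filters, a replicate block, symbols as deposited, summed copies, the other set of libraries, limma on log2(FPKM + 1), genes taken as counted alike (48 of 63 members, with at most 25% exon overlap and no copy at 95% identity), and leaving out each library. The labels do not tie same-numbered libraries of different groups to each other. The correlation of same-numbered deviations was -0.0412, 0.134 and -0.0709 over the 3 pairs of groups. With 2 libraries a group these values cannot decide whether libraries were paired.

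The members and the lists were chosen with earlier results of these data known. Levels per library are given for members called at least once, the highest member of each class past the filter, and members with a mean of 10 CPM in a group. From the lists, called genes are given, with at most 6 a list. A few listed items are not reported here, and the counts of each list leave them out. A few uncalled genes (Gclc, Slc7a11, Abcc2, Nfe2l2, Ahr, Nr1i2 and Nr1i3) were added after their values were seen.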

Additional observations from a re-analysis of the deposited data

How the results depend on the processing

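In Hep_LPCs against NPC_LPCs, where 0 members were called, DESeq2 called 5 (12.0% of all genes) and the fit of all 6 libraries 3 (9.9%), and leaving out 1 library gave 0 to 2 (0 to 2.83%). In Bec_LPCs against NPC_LPCs, where 1 was called, 0 were called without the count filter, with a filter at 10 CPM, among the genes taken as counted alike and with the replicate block (5.98 to 12.6% of all genes). DESeq2 called 7 (21.2%), limma-voom 2 (14.1%) and the fit of the 4 libraries compared 2 (19.6%), and leaving out 1 library gave 0 to 4 (0.865 to 17.6%). In Bec_LPCs against Hep_LPCs, where 6 were called, the fit of 4 libraries called 12 (39.3% of all genes), leaving out 1 library gave 0 to 12 (3.69 to 36.6%), and the replicate block gave 7 (26.3%). The cause was not tested. Where a group was left with 1 library, that library was assumed to vary like the others.

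Over the 62 single-member results and their 936 alternatives, 823 kept their direction and their side of the threshold, 36 came to pass it, 34 no longer passed it and 43 changed sign, none of these 43 past the threshold. Changes of sign touched 19 results, none of them a call. In log2 fold change, Hep_LPCs against NPC_LPCs gave for Gstm1 (main value -0.00383) 0.000534 with DESeq2 size factors, 0.000635 with DESeq2, 0.0915 with limma-voom, 0.0870 with the replicate block, 0.0108 in the fit of 6 and 0.13 with log2(FPKM + 1), for Gstk1 (-0.14) 0.0801 with limma-voom and 0.0318 with the replicate block, and for Ugt1a7c (0.40) -0.28 with limma-voom, -0.29 with the replicate block and -0.30 with log2(FPKM + 1). Bec_LPCs against NPC_LPCs gave for Gstt3 (-0.26) 0.31 with limma-voom and for Mgst1 (-0.05) 0.0668 with limma-voom and 0.0464 with the replicate block.

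Leaving out 1 library gave ranges across 0. In Hep_LPCs against NPC_LPCs they were -0.73 to 0.86 for Gstk1, -0.44 to 0.63 for Gstm1, -0.54 to 0.62 for Gsto1, -0.81 to 0.43 for Gstp1, -0.73 to 1.86 for Gstt3, -2.02 to 0.21 for Sult1c2 and -2.35 to 1.45 for Ugt1a7c. In Bec_LPCs against NPC_LPCs they were -0.76 to 2.16 for Gsta3, -0.39 to 2.25 for Gsta4, -0.92 to 0.30 for Gstp1, -1.04 to 1.52 for Gstt3, -0.53 to 0.64 for Mgst1, -0.25 to 0.38 for Mgst3 and -2.57 to 0.58 for Ugt2b34. In Bec_LPCs against Hep_LPCs they were -0.44 to 0.32 for Gstp1, -0.44 to 0.30 for Gstz1, -0.69 to 0.0283 for Mgst2, -2.25 to 0.49 for Ugt1a6a and -0.62 to 3.02 for Ugt1a7c. The members at 0 reads limit what the depth can show, as does the number of libraries.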
